A study of Danio rerio with 6 samples.

Results

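The guts of wild-type larvae raised without microbes (WT GF) are described here by the level of each gene, as 3 of the 6 libraries of the series. The members are the 3 libraries whose labels give the genotype WT and the condition GF, and no measured value was used to choose them. Each library was made from 10 to 15 guts dissected from 5-dpf larvae (dpf, days post-fertilization) and pooled, so each is called a pool here. The study set out to learn how the antimicrobial cytokine IL-26 acts in the gut with and without microbes, and its other 3 libraries are *il26*-/- GF guts of the same age. The *il26*-/- line carries a CRISPR/Cas9 mutation of *il26*. WT and *il26*-/- larvae came from clutchmate adults kept in separate tanks, and both groups were made germ-free by surface treatment of the eggs followed by rearing in sterile medium that held ampicillin, kanamycin, ceftazidime and chloramphenicol and was renewed daily, so every pool comes from larvae kept in antibiotics. The WT fish were of the AB line by the study's methods. Nothing in the labels says that the pools came from separate clutches, so the spread between them may be partly technical.

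By 5 dpf the zebrafish gut is an open tube. Its absorptive enterocytes digest and take up food, lipid first of all, and export fat on lipoproteins built on apolipoprotein B. Lysosome-rich enterocytes of the posterior mid-intestine engulf whole proteins, goblet cells secrete mucus and enteroendocrine cells release peptide hormones. The exocrine pancreas and the liver lie against the gut, and pieces of either, and of nearby muscle or skin, can come away with a dissected gut. In pooled tissue such as this, fewer cells of a type and less RNA per cell cannot be told apart.

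Levels are given as CPM, a gene's counts scaled to a library of 1000000 counted reads. A long transcript gives more reads than a short one at the same number of molecules, and no gene lengths were used, so a ranking by CPM orders genes by their share of the reads, not by their number of transcripts. The total counts were 21188195 in pool 1, 21652562 in pool 2 and 29399034 in pool 3, and a count of 3, taken as the floor, was worth 0.102 to 0.142 CPM. Of 15419 gene symbols, 12194 had a count in every WT GF pool and 2132 had 0 in all 3. A mean of at least 1 CPM was reached by 10230 genes, of at least 100 CPM by 1169, of at least 1000 CPM by 164 and of at least 10000 CPM by 11. The 10 genes with the largest mean CPM held 16.3% ± 0.44 of the counts (SD, n = 3), the first 100 held 45.8% ± 1.0 and the first 1000 held 79.4% ± 1.1. The 130 highest genes were enough to hold 50% of the reads.

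Apolipoprotein B led the ranking. The gene *apobb.1*, which encodes the structural protein of lipoproteins, had 40080, 35350 and 34500 CPM in pools 1, 2 and 3, a mean of 36640 ± 3005 CPM (SD, n = 3). Next came the translation elongation factor *eef1a1l1* with 20300 ± 662.3 CPM and the acidic chitinase gene *chia.2* with 19960 ± 1803 CPM, whose ranges over the pools overlapped. The cytoskeletal actin *actb2* had 13950 ± 1137 CPM. Most of the other genes among the 20 highest fell into a few kinds. Pancreatic protease genes took 5 places (*prss59.2*, *cela1.6*, *prss1*, *cpa5* and *prss59.1*). Apolipoproteins took 3 more (*apoa1b*, *apoa4b.1* and *apoa2*). Housekeeping and mitochondrial genes were *eef2b*, *slc25a5*, *gapdh*, *hsp90ab1* and *ucp1*, the last a mitochondrial carrier. The others named here were the xenobiotic-metabolising cytochrome *cyp3a65* and the galectin *lgals2b*. Of these 20 genes, 18 differed by less than 2-fold between the highest and the lowest pool. The exceptions were *apoa1b*, with 5883, 15320 and 10440 CPM in pools 1, 2 and 3, and *apoa2*, with 3053, 8068 and 6192 CPM. Both encode proteins of high-density lipoprotein and both were highest in pool 2 and lowest in pool 1.

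**Figure D1:**
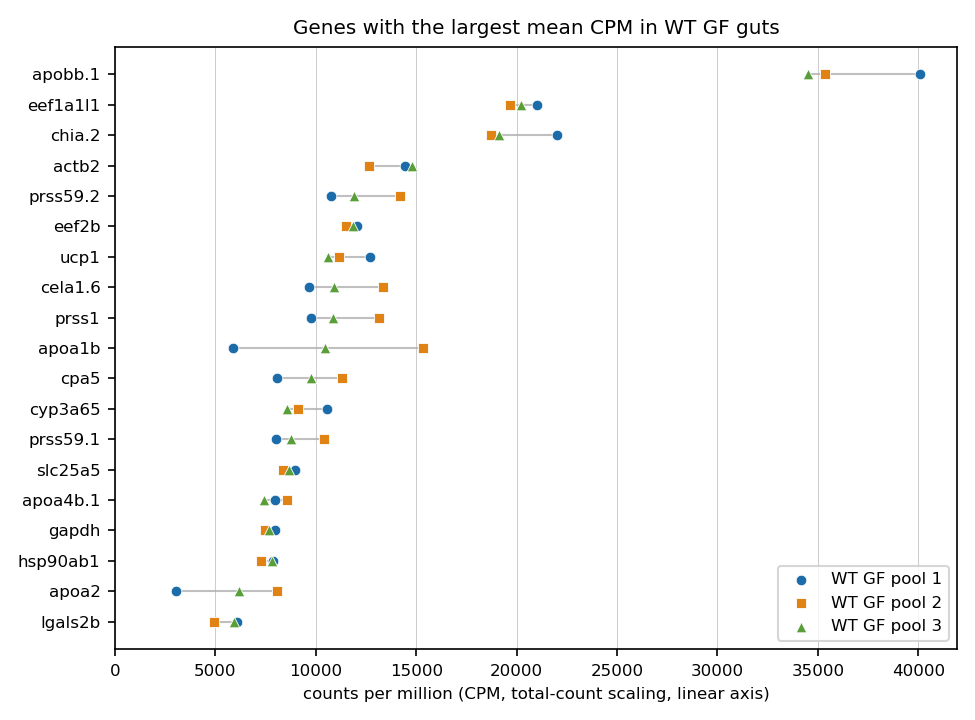
CPM (linear axis, from 0) of 19 of the 20 genes with the largest mean CPM, one symbol for each of the 3 WT GF pools and a grey line over their range. The gene *apobb.1* stands alone with at least 34500 CPM (rounded) in every pool, and *apoa1b* and *apoa2* have their lowest symbol at pool 1 and their highest at pool 2.

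Families gathered by name, a grouping made after the values were seen, gave the same view of the reads. Ribosomal protein genes (rpl, rps) held 10.6% ± 0.37 of the counts, apolipoproteins 8.48% ± 0.72, elongation factors 3.67%, solute carriers 3.02% and cytochromes P450 1.81% (means, n = 3). The ribosomal proteins with the largest means were *rplp0* with 4895 ± 111.9 CPM and *rps2* with 4602 ± 100.1 CPM. Among the solute carriers, *slc25a5*, the mitochondrial exchanger of ADP and ATP, had 8682 ± 299.1 CPM and *slc15a1b*, the peptide transporter of enterocytes, 2568 ± 549.8 CPM. Several of the highest genes lie side by side in the genome. By gene order in RefSeq's annotation of GRCz12tu, a build used for order alone, 99 of the 100 highest genes were found, and 5 pairs were direct neighbours. These were *prss59.1* with *prss59.2*, *apoa2* with *apoc2*, *chia.1* with *chia.2*, *apoa4b.2* with *apoeb* and *apoeb* with *apoc1*. The prss59 pair and the chia pair are each close paralogs, so the split of reads within them is uncertain.

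The absorptive enterocyte list held more of the counts than any other of the 26 lists, 10.0% ± 0.76. Most of that share was *apobb.1* and *chia.2*, with means of 36640 and 19960 CPM. The lead over the exocrine pancreas list, in the mean over pools, rests on *apobb.1*. Levels within the list ranged widely. The brush border aminopeptidase *anpepb* had 4676, 3696 and 3314 CPM in pools 1, 2 and 3. The actin-bundling villin gene *vil1* had 2760 ± 147.6 CPM and the fatty acid binding protein *fabp1b.1* 2574 ± 135.1 CPM. All 3 were chosen after their values were seen. At the other end, *fabp2*, often used as an enterocyte marker, had 17, 13 and 18 counts, at 0.672 ± 0.113 CPM, and the alkaline phosphatase *alpi.1* had 0.588 ± 0.597 CPM. Its paralog *alpi.2* had 134.3 ± 45.81 CPM. Of the 28 measured members, 25 had a mean of at least 1 CPM, and *fabp2*, *alpi.1* and the meprin *mep1b*, with 1, 0 and 1 counts, did not. Low counts such as these are read with the care set out beside the immune genes.

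Between pools, enterocyte genes varied about as often as other genes. Of 25 members with a mean of at least 1 CPM, 2 differed at least 2-fold between the highest and the lowest pool. Across all genes that bar was passed by 840 of 10230, or 8.21%, a share that gives about the same count, with log2 CPM scaled by the TMM method (trimmed mean of M-values) and a prior count of 2. The 2 enterocyte genes encode digestive enzymes of the brush border, the meprin gene *mep1a.1* with 838.0, 591.3 and 393.3 CPM and *alpi.2* with 179.8, 134.8 and 88.20 CPM in pools 1, 2 and 3. In both, pool 1 was highest and pool 3 lowest. A 2-fold difference with pool 1 highest was found in 1.19% of all genes. Pool 3 was also lowest for 19 of the 25 members, against 37.2% of all genes, with a median deviation of -0.19 from the gene's mean on the log2 scale. After TMM scaling it was likewise lowest for 67 of 73 ribosomal protein genes, with a median deviation of -0.1. Both counts depend on the scaling. Without TMM, the ribosomal share of the counts was 10.9%, 10.2% and 10.6% in pools 1, 2 and 3, lowest in pool 2. The enterocyte share was 10.9%, 9.75% and 9.41%, still lowest in pool 3. Fewer of its members were lowest there without TMM, as *chia.2* with 22020, 18710 and 19130 CPM was lowest in pool 2. The median SD of log2 CPM was 0.201 over the enterocyte members and 0.156 over all genes.

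Lysosome-rich and ileal enterocytes were represented by 14 measured genes holding 1.02% ± 0.11 of the counts. The lysosomal proteases *ctsl.1*, *lgmn* and *ctsbb* had 3492 ± 280.6, 1899 ± 538.6 and 599.8 ± 44.67 CPM, and *fabp6*, the ileal bile acid binding protein, had 2543 ± 402.8 CPM. None of the 14 differed 2-fold between pools, against 8.21% of all genes, a share that would give few or none among 14. Their median SD of log2 CPM was 0.0875, against 0.156 over all genes. The largest fold was 1.97, for the threonine dehydrogenase *tdh* with 165.2, 182.4 and 106.7 CPM in pools 1, 2 and 3. The endocytic adaptor gene *dab2*, chosen after its values were seen, had 298.2, 262.9 and 317.7 CPM.

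Genes listed for secretory cells held fewer reads. The goblet and secretory list, with 11 of its 17 genes in the table, held 0.0935% of the counts. The secreted mucins of the list were not in the table, and most of the share was *muc13b* and *anxa4*. The share therefore does not measure how many reads secretory cells gave. The membrane mucin *muc13b* had 479.0 ± 51.37 CPM and *anxa4* 321.8 ± 44.35 CPM. The gene *agr2*, which helps goblet cells fold mucins, had 65.63 ± 16.88 CPM. The chloride channel *cftr* had 33.23, 27.53 and 29.69 CPM, close in all pools. Of 9 members with a mean of at least 1 CPM, 1 differed 2-fold, near the share of 8.21% of all genes. It was the tuft cell regulator *pou2f3*, with 40, 18 and 49 counts, or 1.888, 0.831 and 1.667 CPM.

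Hormone genes held 0.0443%. The enteroendocrine and gut neuropeptide genes *penka* (proenkephalin), *pyyb* (peptide YY) and *vipb* (vasoactive intestinal peptide) had 79.08 ± 16.35, 61.22 ± 3.49 and 57.18 ± 1.86 CPM, with folds of 1.18 to 1.64 between pools. Hormones that pancreatic islet cells also make behaved otherwise. The somatostatin gene *sst2* had 3.16, 35.98 and 6.84 CPM in pools 1, 2 and 3, and *sst1.1* had 5.19, 34.87 and 4.63 CPM. The glucagon genes *gcgb* and *gcga* had 3.96, 30.76 and 6.19 CPM and 37.99, 74.77 and 40.65 CPM. Pool 2 was highest for all 7 of the 22 members that differed 2-fold, where 3.45% of all genes differed 2-fold with pool 2 highest. The other 3 were *gip*, *ghrl* and *pax6b*. The insulin gene *ins* had 0 counts in every pool, and a 0 in this table is read with care, as set out with the immune genes.

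**Figure D2:**
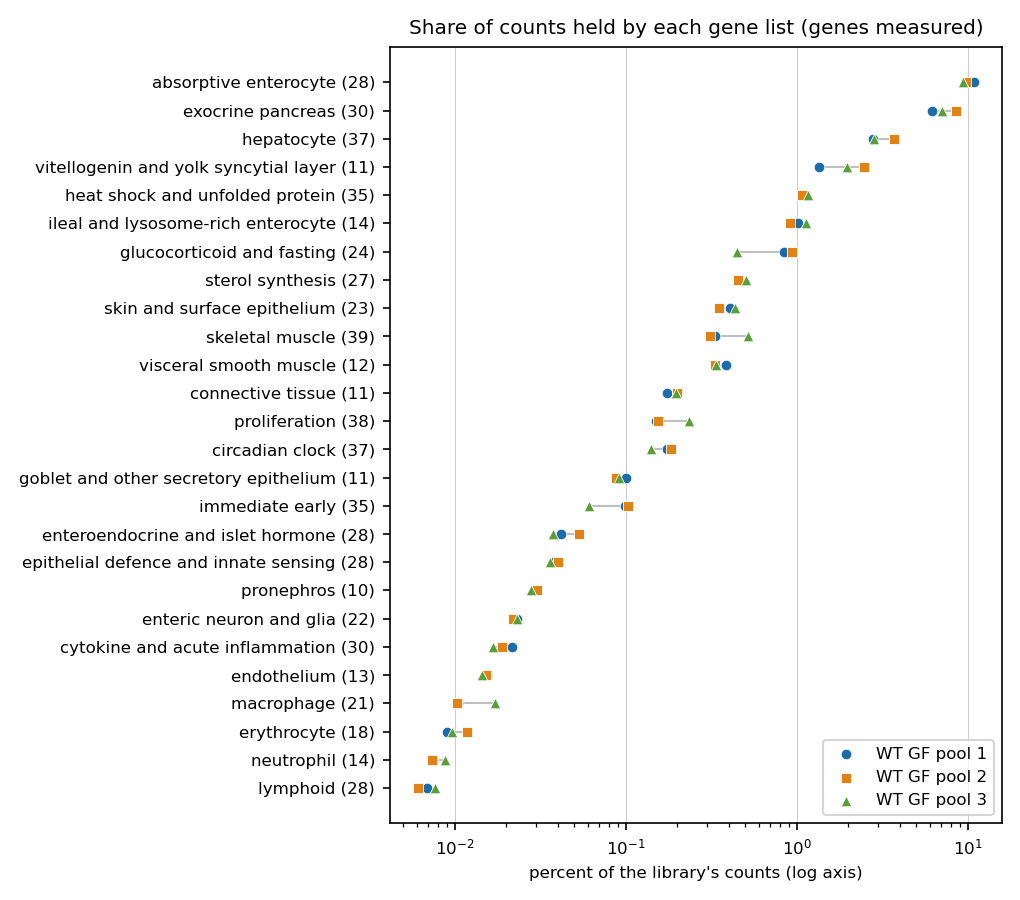
Percent of each library's counts (log axis) held by each of the 26 gene lists, with the number of measured genes in brackets, one symbol for each WT GF pool and a grey line over their range. Enterocyte and pancreas genes lie near 10% and the blood cell lists near 0.01%.

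Exocrine pancreas was the second list, with 7.26% ± 1.1 of the counts from 30 measured genes. By pool it held 6.20%, 8.48% and 7.10%. The trypsin gene *prss59.2* had 10770, 14200 and 11900 CPM in pools 1, 2 and 3, the elastase *cela1.6* had 9639, 13350 and 10900 CPM, and the carboxypeptidase *cpa5* had 8056, 11280 and 9780 CPM. All 27 members with a mean of at least 1 CPM were highest in pool 2, against 31.6% of all genes, down to the acinar transcription factor *ptf1a* with 5.24, 7.67 and 6.02 CPM, which was chosen after its values were seen. No member differed 2-fold, and the folds lay between 1.36 and 1.83. The mean deviation from each gene's own mean, called the list score, was -0.22, 0.36 and -0.14 on the log2 scale. Without TMM, on total counts alone, the pool 2 and pool 3 scores were 0.27 and -0.03. These libraries thus held acinar RNA in every pool, at a share that differed 1.37-fold between pools.

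Liver genes differed more. The hepatocyte list held 3.10% ± 0.50 of the counts, a share that includes genes such as *pck1*, which enterocytes use as well. The transferrin gene *tfa* had 890.0, 2901 and 1883 CPM and the retinol binding protein *rbp4* had 1298, 2508 and 1987 CPM in pools 1, 2 and 3. The fibrinogen gene *fga* had 165.9, 569.8 and 360.4 CPM, and *fabp10a*, the liver fatty acid binding protein, had 371.2, 999.9 and 675.1 CPM, both chosen after their values were seen. Pool 2 was highest, pool 3 intermediate and pool 1 lowest in each.

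Of 34 liver genes with a mean of at least 1 CPM, 31 differed 2-fold between pools, against 8.21% of all genes. Pool 2 was highest in all 31, against 353 of the 840 genes that differed 2-fold (3.45% of all genes). Pool 1 was lowest in 28, against 404 of the 840 (3.95% of all genes). The order pool 2, pool 3, pool 1 held for 30 of the 34, where 13.9% of all genes had that order. The genes *agxtb*, *tat* and *pck1*, which work in amino acid breakdown and gluconeogenesis, were lowest in pool 3 instead. The glyoxylate-clearing enzyme *agxtb* had 324.3, 917.8 and 233.3 CPM, and the fetuin *ahsg2*, the member with the largest SD of log2 CPM, had 16.71, 74.45 and 48.71 CPM. The list score was -0.68, 0.76 and -0.08.

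Apolipoproteins were mixed. The pools stood in the liver order for 7 of 14 with a mean of at least 1 CPM, against 13.9% of all genes, among them *apoa1b* and *apoa2*, given above, and *apoc1* with 1726, 2689 and 2540 CPM. By contrast *apoc2* had 2495, 2537 and 2507 CPM and *apoa4b.1* had 7948, 8541 and 7437 CPM, nearly level. Of the 14 apolipoproteins, 5 differed 2-fold, against 8.21% of all genes. Of these 5, *apoa1b*, *apoa2* and *apoc4*, the last with 1.04, 2.91 and 1.67 CPM, had the liver order. The other two were *apoa4a*, lowest in pool 3 with 99.63, 87.84 and 26.16 CPM in pools 1, 2 and 3, and *apoda.1*, highest in pool 3 with 1.04, 1.02 and 3.23 CPM. Liver in mammals makes much of the plasma apoA-I and apoA-II, as background. The gene *apoa1b* stands in the list of vitellogenin and yolk syncytial layer genes. That list held 1.35%, 2.46% and 1.96% of the counts in pools 1, 2 and 3. The part of liver or yolk syncytial layer RNA in the *apoa1b* and *apoa2* values was not tested. Among the 7 vitellogenins, egg yolk proteins that are made in the adult liver, *vtg1* had the largest mean, with 1.89, 1.62 and 1.46 CPM.

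**Figure D3:**
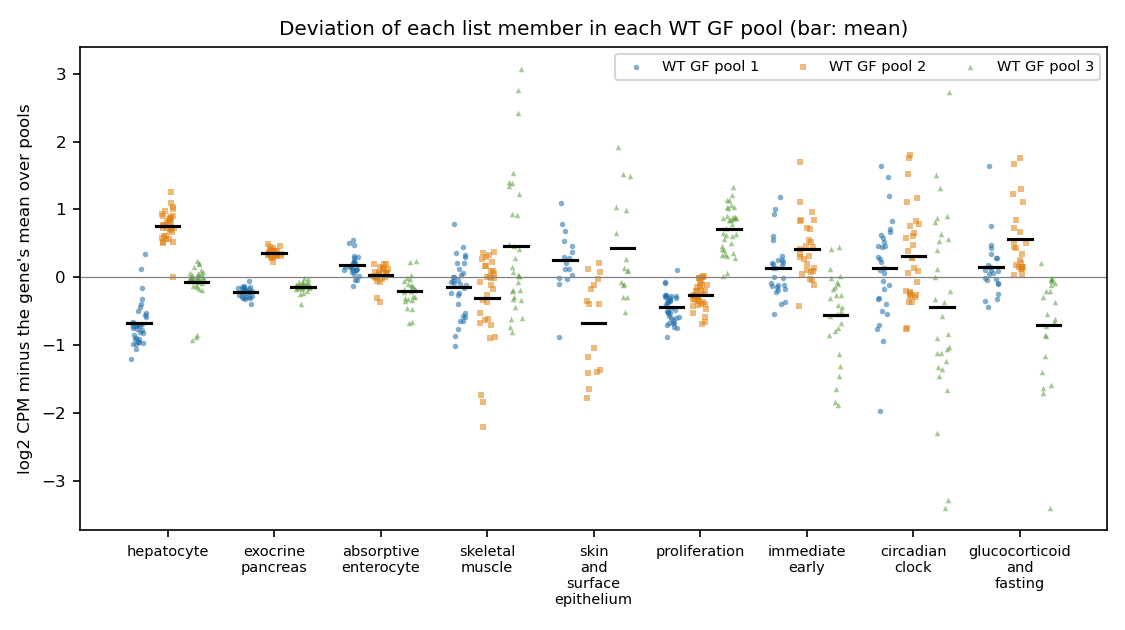
Log2 CPM of each list member minus the gene's mean over the 3 WT GF pools (y axis), for members with a mean of at least 1 CPM in 9 lists, with a bar at the mean of each list and pool. Liver genes are high in pool 2 and low in pool 1, proliferation genes are high in pool 3, and clock genes spread both ways in pool 3.

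Smooth muscle of the gut wall was also represented. The 12 measured genes held 0.351% of the counts, with *acta2* at 1619 ± 142.5 CPM, the myosin *myh11a* at 673.1 ± 100.8 CPM and the actin-binding *tagln* at 300.8 ± 26.43 CPM. None of its 10 members with a mean of at least 1 CPM differed 2-fold, against 8.21% of all genes, a share that would give few or none in a list this short. No 2-fold difference was found either among 10 connective tissue genes, led by the fibronectin *fn1b* with 1072 ± 196.0 CPM, or among 25 sterol synthesis genes, led by *cyp51* with 1030 ± 87.26 CPM. The median SDs of log2 CPM of these lists were 0.189, 0.159 and 0.170, against 0.156 over all genes. The enteric neuron genes *ret* and *nos1*, a receptor that guides enteric neuron precursors and the nitric oxide synthase of relaxing neurons, had 31.73 ± 1.83 and 28.55 ± 0.329 CPM.

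Skeletal muscle genes held 0.388% of the counts. Without the enolase *eno3*, which was left out after its values were seen, they held 0.181%, 0.157% and 0.363% in pools 1, 2 and 3. Of 31 members with a mean of at least 1 CPM, 13 differed 2-fold, against 8.21% of all genes. Pool 3 was highest in 10 of the 13, against 365 of the 840 genes that differed 2-fold (3.57% of all genes). The differences were very unequal within the list. The fast myosin heavy chains *myhz1.1* and *myhz1.2* had 26.29, 15.15 and 393.4 CPM and 14.54, 5.45 and 245.1 CPM in pools 1, 2 and 3. The calcium buffer *pvalb1* had 79.05, 63.60 and 394.6 CPM and the sarcomeric actin *actc1b* 480.6, 447.3 and 865.5 CPM. Other sarcomere genes went the other way, as the myosin *myhz2* with 122.1, 59.62 and 50.51 CPM, or stayed level, as the light chain *myl1* with 65.60, 64.29 and 75.95 CPM. Both of these were chosen after their values were seen. The list score was -0.15, -0.31 and 0.46.

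Skin and surface epithelium genes held 0.396%. Its members with the largest means are keratins that other epithelia also use, and some were level, as *krt97* with 1275, 1340 and 1311 CPM. Of 16 members, 8 differed 2-fold, against 8.21% of all genes. Pool 2 was lowest in all 8, against 196 of the 840 genes that differed 2-fold (1.92% of all genes). Pool 3 was highest in 6 of the 8, against 365 of the 840 (3.57% of all genes). The other members, *krt92* and *anxa1c*, were highest in pool 1. Over all 16 members, pool 3 was highest in 7 and lowest in 5. The epidermal keratins *cyt1* and *krt17* had 68.39, 19.12 and 198.6 CPM and 12.55, 10.71 and 96.26 CPM. Among genes outside the lists, *krtt1c19e*, a keratin of basal epidermis in zebrafish, and *col17a1a*, a collagen of the hemidesmosomes that anchor basal skin cells, were likewise lowest in pool 2 and highest in pool 3. The gene *col17a1a* had 17.5, 1.57 and 55.4 CPM.

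Immune genes were scarce. The macrophage, neutrophil and lymphoid lists held 0.0126%, 0.00788% and 0.00686% of the counts, and the erythrocyte list 0.0101%. Most of the macrophage share was the single gene *grn1*, with 65.93, 67.06 and 122.4 CPM in pools 1, 2 and 3. The next member, *lygl1*, had 8.92 ± 2.66 CPM. The growth factor receptor *csf1ra* of macrophages had 5.24, 3.88 and 5.07 CPM. Macrophage gene *mpeg1.2* had 38, 18 and 141 counts. In neutrophils, the oxidase subunit *ncf1* had 14.87 ± 3.52 CPM and lysozyme *lyz* 2.12, 0.416 and 3.88 CPM. The chemotaxin *lect2l*, with 89, 291 and 222 counts in pools 1, 2 and 3, took the order of the liver genes, and it is also a liver product in fish. Of the lymphoid list, *lcp1*, an actin bundler of all leukocytes, and the transcription factors *runx3* and *gata3* had 22.42 ± 1.82, 10.78 ± 2.84 and 8.28 ± 2.31 CPM. The gene listed as *cd3eap*, at 10.43 ± 2.13 CPM, encodes a subunit of RNA polymerase I by its known role and is no T cell marker. The recombinase *rag1*, which marks developing lymphocytes and was chosen after its values were seen, had 8, 7 and 1 counts.

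Most cytokine genes were at or near the floor. Of all 15419 symbols, 10230 had a mean of at least 1 CPM. In the cytokine list, receptors and feedback inhibitors included, 7 of 30 genes did. Among these, the chemokine *cxcl8b.1* had 61, 82 and 76 counts, or 3.08 ± 0.627 CPM. The cytokine gene *il26* had 0 counts in every WT GF pool, where 3 counts would have been 0.102 to 0.142 CPM. The inflammatory cytokines *tnfa* and *il1b* had 4, 3 and 6 counts and 7, 6 and 13 counts in pools 1, 2 and 3. In humans the IL-26 receptor joins IL-20RA and IL-10RB, and here *il20ra* had 52.48, 41.24 and 46.91 CPM and *il10rb* 78.49, 68.21 and 73.06 CPM. The adaptor of Toll-like receptors, *myd88*, had 13.21, 14.83 and 12.35 CPM. The level of each of these 3 genes kept within 1.38-fold. The cytokine feedback inhibitor *socs3a* had 49.41, 44.84 and 12.08 CPM, lowest in pool 3, and its paralog *socs3b* had 21.71, 19.44 and 19.25 CPM. Among the epithelial defence genes, the iron-regulating liver peptide gene *hamp* had 19.40, 62.49 and 9.22 CPM and *stat1a*, a transducer of interferon signals, 76.13, 66.83 and 83.64 CPM.

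Neither a 0 nor a count near 0 can be read as a silent gene in this table. Of 621 list genes in the table, 55 had 0 counts in all WT GF pools, against 2132 of all 15419 symbols. Of the 55, 46 were at 0 in all 6 libraries of the series. Ribosomal protein genes, which every cell uses, had a median of 1128 CPM, but 10 of 83 had a mean under 1 CPM, as *rps3a* with 2, 2 and 2 counts and *rpl30* with 7, 5 and 8 counts. Low values given here as levels, as for *fabp2*, can be of the same kind. The genes at 0 include some whose partners were detected in every pool. The collagen *col1a1a* was listed at 0 while *col1a1b* and *col1a2*, which share its fibril, had 270.0 ± 50.01 and 175.7 ± 26.22 CPM. The mitotic kinase *cdk1* was listed at 0 while its cyclin *ccna2* had 3.87, 3.28 and 14.25 CPM. The macrophage gene *mpeg1.1* and the complement genes *c1qa*, *c1qb* and *c1qc* were also listed at 0. Of these genes, *rps3a*, *rpl30*, *col1a1a*, *cdk1*, *mpeg1.1* and the c1q genes were chosen after their values were seen.

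The pools were otherwise alike. Over the 10230 genes with a mean of at least 1 CPM, the median SD of log2 CPM was 0.156 and the median fold between the highest and the lowest pool was 1.23. Spearman's correlation of log2 CPM across these genes, which are not independent replicates, was 0.985 for pools 1 and 2, 0.978 for pools 1 and 3 and 0.975 for pools 2 and 3. A 2-fold difference was found for 349, 492 and 538 genes in these pairs. Pools 2 and 3 were thus the least alike pair and pools 1 and 2 the most alike by both measures. Among the 100 genes with the largest mean CPM, 8 differed 2-fold, and among the 1169 genes with a mean of at least 100 CPM, 79 did. Among the 5 steadiest genes with a mean of at least 100 CPM were *vps4b*, *atp6v0ca*, *stt3b* and *eif4g2b*, which work in endosomal sorting, vesicle acidification, protein glycosylation and translation. Their folds were 1.006 to 1.015, as for *atp6v0ca* with 344.1, 327.1 and 378.4 CPM before TMM scaling.

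**Figure D4:**
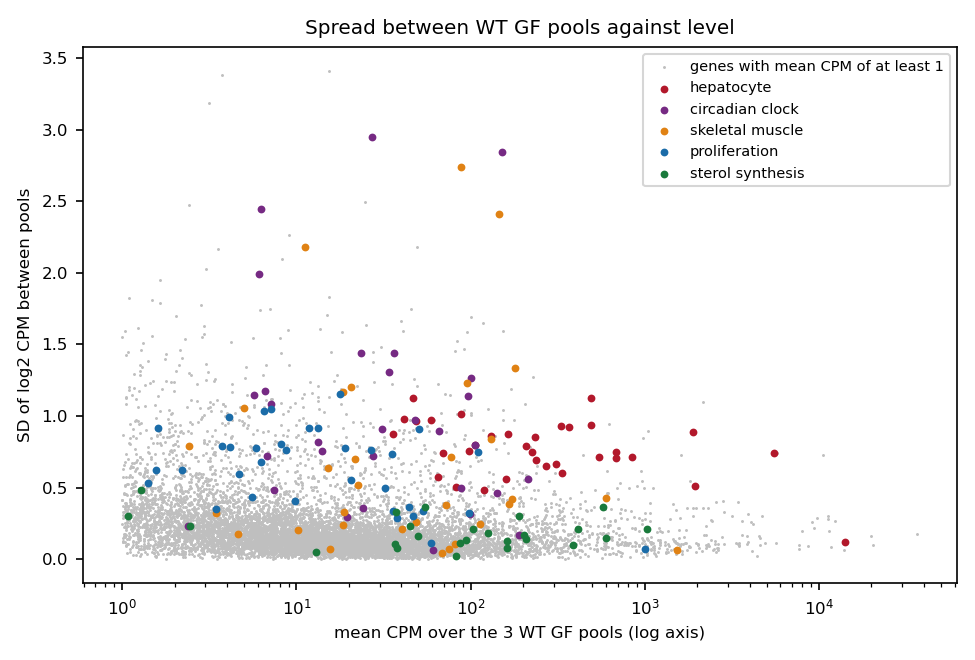
SD of log2 CPM between the 3 WT GF pools (y axis) against mean CPM (log x axis) for each gene with a mean of at least 1 CPM, with members of 5 lists coloured. The median SD of all genes is 0.156, most coloured liver genes lie far above it, and sterol synthesis genes lie within the bulk.

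Clock genes stood high among the genes that varied most. Vertebrate clocks run as a loop in which CLOCK and ARNTL drive the per, cry and nr1d genes, whose products then hold them back, so the arms of the loop peak at different times of day. The nuclear receptor *nr1d1*, a repressor of arntl genes, had 203.6, 244.2 and 8.16 CPM in pools 1, 2 and 3, and the period gene *per1a* had 39.60, 40.97 and 1.23 CPM. Pools 1 and 2 were close for both, and pool 3 stood far below. Of 30 clock genes with a mean of at least 1 CPM, 21 differed 2-fold, against 8.21% of all genes. Pool 3 was lowest in 14 and highest in 7. Among the 840 genes that differed 2-fold, it was lowest in 240 (2.35% of all genes) and highest in 365 (3.57%).

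The 7 that were highest in pool 3 included both arntl1 genes and *clocka*. They also included *bhlhe40*, the clock list member with the largest mean, with 149.6, 158.9 and 335.7 CPM in pools 1, 2 and 3. Pools 1, 2 and 3 had 7.03, 9.47 and 23.54 CPM of *arntl1a* and 2.55, 3.65 and 13.71 CPM of *arntl1b*, and the activating receptor *rorcb* had 0.519, 1.25 and 17.04 CPM. The 14 that were lowest held *per1a*, *per1b* and *per3*, *nr1d1* and *nr1d2a*, and the output factors *dbpa*, *dbpb*, *tefa* and *tefb*, which bind D-box elements. Members that did not differ 2-fold included *nr1d2b* with 201.9, 190.0 and 178.7 CPM and *cry1a* with 113.6, 101.7 and 83.03 CPM. Another was *cry3a*, which was highest in pool 3 with 107.1, 109.6 and 210.8 CPM, so the cry genes did not all fall there. The pair *arntl1a* and *arntl1b*, *clocka* and *cry1a* were chosen after their values were seen.

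**Figure D5:**
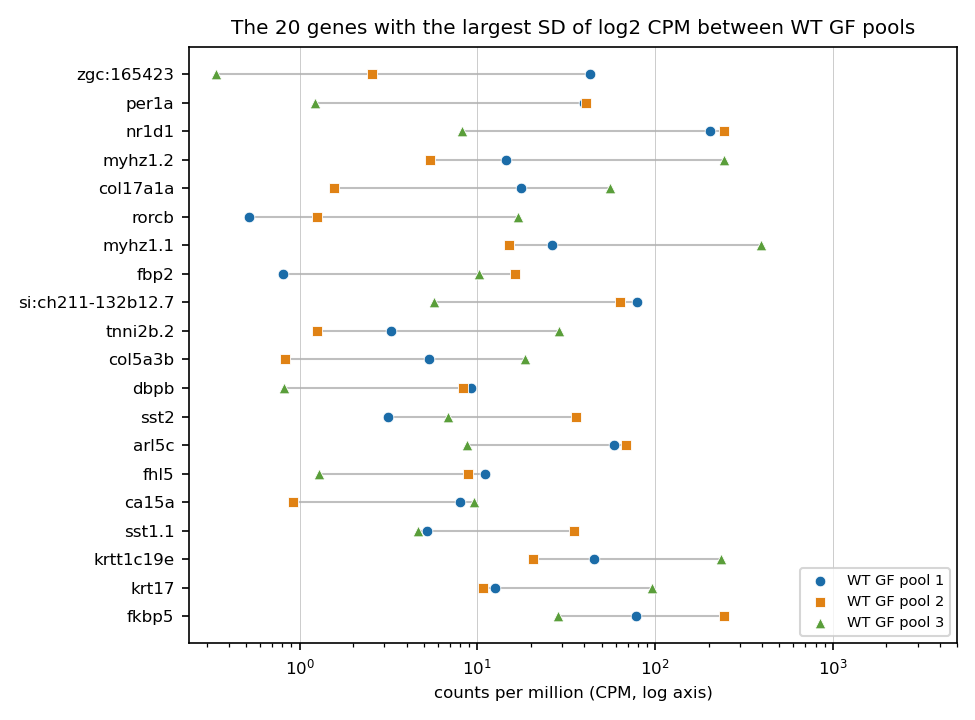
CPM (log axis) in each WT GF pool of the 20 genes with the largest SD of log2 CPM among genes with a mean of at least 5 CPM, in order of SD, with a grey line over the range. Pool 3 is at 1 end of the range for most of them, low for *per1a*, *nr1d1* and *dbpb* and high for *rorcb*, the fast myosin genes and the skin genes.

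Glucocorticoid and fasting genes held 0.844%, 0.943% and 0.448% of the counts in pools 1, 2 and 3, and most of that in each pool was *pck1*. Of 23 members, 11 differed 2-fold, against 8.21% of all genes. In all 11 pool 2 was highest and pool 3 lowest. Among the 840 genes that differed 2-fold, pool 2 was highest in 353 (3.45% of all genes) and pool 3 lowest in 240 (2.35%). The glucocorticoid-induced chaperone *fkbp5* had 78.49, 244.6 and 28.54 CPM, and the glutathione-degrading stress enzyme *chac1* had 226.8, 379.0 and 77.01 CPM. The gluconeogenic enzyme *pck1*, one of the highest genes of the gut at rank 21, had 6540, 6953 and 3120 CPM. The starvation-responsive kinase *pdk4*, with 80.33, 68.72 and 67.38 CPM, stayed level and was chosen after its values were seen. The gene *per1a* stands in this list and in the clock list, and *pck1* in this list and in the liver list.

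Immediate early genes, which cells switch on within minutes of a stimulus, were also low in pool 3. Of 27 members, 13 differed 2-fold, against 8.21% of all genes. Pool 3 was lowest in all 13, against 240 of the 840 genes that differed 2-fold (2.35% of all genes). The growth arrest genes *gadd45ba* and *gadd45bb* had 159.2, 91.35 and 24.39 CPM and 35.73, 34.45 and 5.44 CPM in pools 1, 2 and 3, and the transcription factor *egr1* had 13.45, 11.45 and 1.97 CPM. The fold was smaller for other members, as for *mcl1a* with 199.3, 171.6 and 150.4 CPM. Over all 27 members, pool 3 was lowest in 21 and highest in 3. Heat shock and unfolded protein genes held 1.12% of the counts, led by the chaperone *hsp90ab1* with 7850, 7269 and 7797 CPM.

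Proliferation genes were highest in pool 3. The list held 0.180% of the counts, and most of that was the tubulin *tuba8l*, which non-dividing cells use too. The replication clamp *pcna* had 66.88, 73.48 and 192.2 CPM in pools 1, 2 and 3, and *rrm2*, which makes DNA precursors, 8.31, 7.94 and 36.77 CPM. Pools 1 and 2 were close in both. After TMM scaling, pool 3 was highest for 34 of 35 members, and the exception was the cyclin gene *ccnd1*. Of the 35, 22 differed 2-fold, against 8.21% of all genes. Pool 3 was highest in all 22, against 365 of the 840 genes that differed 2-fold (3.57% of all genes). Replication genes of the mcm group had smaller folds, as *mcm2* with 36.67, 42.72 and 61.23 CPM, and the division marker *mki67* had 21.95, 23.14 and 61.09 CPM, both chosen after their values were seen. The list score was -0.45, -0.27 and 0.71, and *ccnd1*, active before replication, was nearly level with 62.06, 50.62 and 63.91 CPM. Among genes that differed 2-fold, most skeletal muscle and skin genes were also highest in pool 3, as given above. All such immediate early and fasting genes were lowest there. The part of any of these in the proliferation values was not tested.

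Among the 20 genes with the largest SD were also genes of no list. The gene *zgc:165423* had 43.0, 2.54 and 0.340 CPM in pools 1, 2 and 3, the largest SD among genes with a mean of at least 5 CPM. The gluconeogenic fructose bisphosphatase *fbp2* had 0.802, 16.26 and 10.27 CPM, lowest in pool 1, and the collagen *col5a3b* was lowest in pool 2 and highest in pool 3. The genes *arl5c* and *si:ch211-132b12.7* were lowest in pool 3, as was *fhl5*, and *ca15a* was lowest in pool 2.

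Spread between pools was set beside the spread between the *il26*-/- GF pools, which had total counts of 7528412, 38143258 and 16095605. The common biological coefficient of variation estimated by edgeR was 0.201 in WT GF and 0.154 in *il26*-/- GF. At a mean of at least 1 CPM, 840 of 10230 genes (8.21%) differed 2-fold between WT GF pools and 588 of 10359 (5.68%) between *il26*-/- GF pools. The genes that varied most were partly shared. Over 7749 genes with a mean of at least 5 CPM in both groups, the SDs had a Spearman correlation of 0.369 across genes, as a description. Ranked among these 7749 genes, the 20 with the largest SD in each group had 10 in common, 50% of each list, and the 100 with the largest had 58 in common, 58% of each. Of the 20 genes plotted above, which were ranked in WT GF alone, 16 met the filter in both groups, and all 16 lay above the percentile 90 of SD in *il26*-/- GF. Their median SD was 2.18 in WT GF and 1.12 in *il26*-/- GF, against 0.136 and 0.142 for all 7749 genes.

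List by list, both groups had variable clock, immediate early, fasting and muscle genes. The shares of all genes that differed 2-fold were 8.21% in WT GF and 5.68% in *il26*-/- GF. Fasting genes differed 2-fold in 11 of 23 members in WT GF and 8 of 23 in *il26*-/- GF. Clock genes differed 2-fold in 21 of 30 members in WT GF and 17 of 30 in *il26*-/- GF. Immediate early genes did so in 13 of 27 in WT GF and 18 of 27 in *il26*-/- GF, skeletal muscle genes in 13 of 31 in both groups, and skin genes in 8 of 16 in WT GF and 6 of 16 in *il26*-/- GF. Liver genes differed 2-fold in 31 of 34 members in WT GF and 10 of 34 in *il26*-/- GF. Proliferation genes did so in 22 of 35 members in WT GF and 1 of 35 in *il26*-/- GF, the latter near the share of all genes. Their list scores in *il26*-/- GF were 0.10, -0.16 and 0.06. The difference in spread between the groups was not tested. In *il26*-/- GF pools 1, 2 and 3, *nr1d1* had 78.5, 179.6 and 9.506 CPM, *per1a* 20.85, 20.71 and 2.485 CPM and *rorcb* 1.195, 1.73 and 25.78 CPM. Pool 3 was thus at the same end for these clock genes as in WT GF. Other lists repeated the WT GF order to different degrees. Immediate early scores were -0.49, 0.78 and -0.29, with pool 2 highest and pool 1 lowest. Of the 27 immediate early members, 15 had pool 2 highest and pool 3 lowest among the WT GF pools. Muscle and skin scores in pool 3 were -0.06 and -0.33. Most muscle and skin genes that differed 2-fold between WT GF pools had been highest in pool 3. Nothing in the labels says what pools of the same number share.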

How the data were processed

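Guts of 5-dpf larvae were dissected, 10 to 15 per replicate, and TruSeq stranded mRNA libraries were read from both ends (100 bp). The authors checked reads with FastQC 0.11.8 and mapped them to danRer11. The deposited values are raw counts for each gene symbol, not normalized. The counting tool, annotation and strand setting are not given in the sources used here, so counts of paralogs, overlapping and antisense genes are uncertain.

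From the deposited counts, 3 WT GF libraries were described and nothing was tested between groups. Levels are CPM of total counts. Spread between pools used log2 CPM after TMM scaling with a prior count of 2 (edgeR 4.0.16, R 4.3.3), for genes with a mean of at least 1 CPM. A gene differed 2-fold where the highest and lowest pool were at least 1 apart on the log2 scale. Scaling by total counts alone moved the median of all genes by -0.018, -0.091 and 0.11 in pools 1, 2 and 3, and folds are relative to TMM scaling. Columns without a sample numbered 0. The pools were no duplicates, with a chi-square of at least 53.1 per degree of freedom for each pair. The steps were tested on simulated data. Floors cover counting error only.

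Genes were named by rule: the 20 with the largest mean CPM; of each list, up to 4 with the largest mean and 2 with the largest SD; the 20 with the largest SD at a mean of at least 5 CPM; the 5 with the smallest at a mean of at least 100 CPM; and *il26*, *il20ra*, *il10rb*, *tnfa*, *il1b* and *myd88*. A few genes that meet the rule are not reported here. Others were chosen after their values were seen, as were members named only to say which genes made up a count. The members and lists (710 genes, 621 in the table) were chosen with earlier results of these data known. Alternatives were scaling (DESeq2 1.42.0 size factors, total counts), prior count, filters, totals without the highest genes or pancreas genes, and each pool left out. Gene order came from the RefSeq table of GRCz12tu, another build, so no coordinates are given; 14811 symbols matched. Sequences and gene lengths were not used here.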

Additional observations from a re-analysis of the deposited data

How the results depend on the processing

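No list score of at least 0.25 in size changed sign under any alternative run. The count of genes that differed 2-fold between WT GF pools depended on the filter, with 2078 of 13287 genes (15.6%) without a filter beyond 1 count in any pool and 459 of 7820 (5.87%) at a mean of at least 5 CPM, against 840 of 10230 (8.21%). By construction it fell with a pool left out, to between 349 and 538. Thinning all pools to 1 depth, added after the data had been seen, gave 848 of 10232 (8.29%). With the exocrine pancreas list taken out of the total, the first 10, 100 and 1000 genes held 16.9%, 43.9% and 78.0% of the counts. The pancreas scores on total counts stand in the report. Leaving out any 1 pool kept 19 or 20 of the 20 genes with the largest mean CPM.

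Levels per kilobase were planned and not run, since no gene lengths were used. No paired analysis was possible because the 3 pools belong to 1 group and nothing was tested. With 3 pools, each SD is itself imprecise, and a gene that stands out in 1 WT GF pool has no second WT GF pool to repeat it. Genes under 10 counts, up to 0.472 CPM, are set mainly by counting error.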
